A study of Mus musculus with 8 samples.

Results

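Genes for protein folding in the endoplasmic reticulum (ER) and for the unfolded protein response were followed in messenger RNA bound to ribosomes of mouse kidney endothelium. The members were 35 named genes of this system, taken by symbol from a deposited table of 23930 amplicons. Of these, 34 had a row, and Sec61b was not analysed here. A filter on low counts kept 33 of the 34, among 12820 genes kept in all. The exception was Derl3, a Derlin of ER-associated degradation, with between 0 and 9 reads in each library.

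The libraries fell into 4 groups by genotype and treatment. SOCS3iKEO stands for an inducible knockout of Socs3, a feedback inhibitor of cytokine signalling, in endothelial cells. Endotoxin (lipopolysaccharide, LPS; 250 µg in 250 µl) was given to 2 SOCS3iKEO and 3 wild-type (WT) mice, and saline (250 µl) to 1 SOCS3iKEO and 2 WT mice, in each case by 1 injection into the peritoneum 14 h before kidneys were taken. By the protocol, the mice of all groups carried a transgene for an EGFP-tagged ribosomal protein L10a, switched on by a tamoxifen-inducible Cre under the Cdh5 promoter, so that ribosomes of Cdh5-expressing endothelial cells could be pulled down (translating ribosome affinity purification). Each library came from 1 mouse, and the age and sex of the animals are not in the labels. The numbers of the animals fall into 2 runs: one holds WT saline and SOCS3iKEO LPS, the other WT LPS and SOCS3iKEO saline. A shift between the runs cannot be told apart from the effect of LPS within a genotype, from a difference between genotypes within a treatment, or from their interaction.

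Secretory and membrane proteins enter the ER through the Sec61 translocon and are folded there by the Hsp70 protein BiP (Hspa5), the Hsp90 protein GRP94 (Hsp90b1), the lectin chaperones calnexin and calreticulin, and protein disulfide isomerases. Unfolded protein activates the sensors IRE1 (Ern1), ATF6 and PERK (Eif2ak3). IRE1 splices the messenger of the transcription factor XBP1, ATF6 is cut in the Golgi to release a transcription factor, and PERK phosphorylates the initiation factor eIF2α, which slows translation and favours that of ATF4. XBP1 and ATF6 switch on chaperones, ER-associated degradation and export, and endothelial cells depend on this system to secrete large proteins such as von Willebrand factor. A panel with 1 amplicon per gene does not resolve spliced from unspliced Xbp1, and it gives messenger bound to ribosomes, not protein.

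Values are reads per 1000000 panel reads (RPM), divided by a scaling factor per library (trimmed mean of M values, TMM) where they are called TMM-scaled. Amplicons differ in how well they amplify, so levels are compared between libraries and not between genes. Libraries held 7093794 to 14877519 reads. A principal component holding 67.8% of the variance set SOCS3iKEO LPS off, at -118.3 and -96.38, from the other 6 libraries, at -7.83 to 63.89. Its TMM factors were 0.671 and 0.709, against 0.994 to 1.07 in WT LPS, 1.25 in SOCS3iKEO saline and 1.25 and 1.26 in WT saline. Without TMM scaling the median log2 fold change over all genes was -0.734 for LPS in SOCS3iKEO, -0.447 for SOCS3iKEO against WT after LPS, -0.435 for the interaction and -0.264 for LPS in WT. Many calls below depend on this choice, and the number of members called is given under both scalings for each comparison. Socs3 had 20 and 25 reads in SOCS3iKEO LPS, 118, 17 and 26 in WT LPS, 2 in SOCS3iKEO saline, and 9 and 3 in WT saline; whether its amplicon lies inside the deletion is not given, so these reads do not check the genotype. Reads on Y-linked genes were above 100 in WT LPS 2, WT LPS 3 and WT saline 2 only. The other libraries, with every SOCS3iKEO library among them, had 1 to 3. Sex, as read from these genes, was thus unbalanced between the genotypes, and a term for Y-linked reads was run as an alternative. In RNA of a whole preparation, fewer cells of a type and less RNA per cell cannot be told apart.

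The summed RPM of 14 endothelial markers was 4399 to 5895 in SOCS3iKEO LPS, 6505 to 8454 in WT LPS, 11263 in SOCS3iKEO saline and 11295 to 12027 in WT saline, and all 14 were detected. Divided by the TMM factors, these sums were 6552 and 8316 in SOCS3iKEO LPS and 6541 to 8388 in WT LPS, so the genotypes overlapped, and 3 of the 14 were called higher and 3 lower. Cdh5, whose promoter drives the Cre, had 1003 and 1362 RPM as deposited in SOCS3iKEO LPS and 334 to 367 RPM in WT LPS. Esam went the same way, with 505.1 and 556.3 RPM against 307.4 to 379.5 RPM. Egfl7 (105.9 and 229.7 against 790.2 to 1187 RPM) and Kdr (31.43 and 146.6 against 351.1 to 470.8 RPM) went the other way. Proximal tubule markers (11 in the table) summed to 2157 to 2352 RPM in SOCS3iKEO LPS and 1005 to 1437 RPM in WT LPS. In saline they summed to 2237 RPM in SOCS3iKEO and 2311 to 2372 RPM in WT. Divided by the TMM factors, the sums were 3503 and 3043 in SOCS3iKEO LPS and 1011 to 1425 in WT LPS. In saline they were 1795 in SOCS3iKEO and 1830 and 1899 in WT. With TMM scaling, 10 of those 11 were higher and 0 lower in SOCS3iKEO than in WT after LPS. With LPS 6 of the 11 were higher and 0 lower in SOCS3iKEO, and 5 were lower and 0 higher in WT. The interaction called 9 of the 11 higher and 0 lower. Loop of Henle and distal tubule markers (7) summed to 365 RPM in both SOCS3iKEO LPS libraries and 86.1 to 114 RPM in WT LPS. In saline they summed to 252 RPM in SOCS3iKEO and 244 to 315 RPM in WT. With TMM scaling the sums were 543 and 516 in SOCS3iKEO LPS, 86.6 to 113 in WT LPS, 202 in SOCS3iKEO saline and 249 and 195 in WT saline. Plasma cell and B cell markers (8), of interest because plasma cells are rich in ER chaperones, summed to 22.8 to 24.8 RPM in SOCS3iKEO LPS and 3.00 to 4.59 RPM in WT LPS. Sdc1, which epithelia also make, gave 22.3 to 24.4 RPM of the SOCS3iKEO LPS sums, Mzb1 and Tnfrsf17 were at 0 there and Ms4a1 was at 0 in every library. Myeloid markers (9) summed to 18.9 to 37.8 RPM in SOCS3iKEO LPS and 7.18 to 15.1 RPM in WT LPS. The part of these other cell types in the values of the ER genes was not tested.

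Before the values, the promoters are shown, because the ER stress response element through which ATF6 acts is the sequence that many of these genes share. In the RefSeq promoter table (GRCm38.p6), 28 of the 34 members matched. The bases searched were the 250 before the start of each gene, on both strands. The element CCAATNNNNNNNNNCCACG was present in 9 of the 28 (32.1%), against 35 of all 27025 genes (0.13%), and these were Hspa5, Hsp90b1, Calr, Canx, Dnajc3, Pdia6, Creld2, Syvn1 and Derl3. The second form, ATTGGNCCACG, was found in Herpud1 and in 10 of all genes (0.037%). The short site CCACG, which both forms contain, occurred in 22 of 28 members (78.6%) and in 31% of all genes. The XBP1 and ATF6 element TGACGTGG was found in Sec24d and in 0.603% of all genes. The 5 promoters below belong to the members with a full element that had the largest changes in any comparison, with the element in capitals. Hspa5 lies at chr2:34771840-34772089 on the plus strand, Herpud1 at chr8:94386179-94386428 (plus), Creld2 at chr15:88819396-88819645 (plus), Dnajc3 at chr14:118937682-118937931 (plus) and Hsp90b1 at chr10:86705445-86705694 (minus).
Hspa5: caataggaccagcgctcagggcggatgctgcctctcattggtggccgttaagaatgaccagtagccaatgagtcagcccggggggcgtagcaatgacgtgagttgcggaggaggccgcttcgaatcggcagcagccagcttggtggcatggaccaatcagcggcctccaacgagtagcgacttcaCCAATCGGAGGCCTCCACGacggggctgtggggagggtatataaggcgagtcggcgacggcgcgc
Herpud1: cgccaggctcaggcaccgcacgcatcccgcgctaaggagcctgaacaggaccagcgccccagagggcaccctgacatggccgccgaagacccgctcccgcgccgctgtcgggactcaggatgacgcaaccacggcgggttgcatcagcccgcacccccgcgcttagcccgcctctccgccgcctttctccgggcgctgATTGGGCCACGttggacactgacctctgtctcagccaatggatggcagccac
Creld2: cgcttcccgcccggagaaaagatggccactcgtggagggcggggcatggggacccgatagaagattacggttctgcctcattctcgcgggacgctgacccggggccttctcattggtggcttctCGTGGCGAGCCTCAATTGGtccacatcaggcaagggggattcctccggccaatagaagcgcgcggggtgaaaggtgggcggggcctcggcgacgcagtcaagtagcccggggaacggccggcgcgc
Dnajc3: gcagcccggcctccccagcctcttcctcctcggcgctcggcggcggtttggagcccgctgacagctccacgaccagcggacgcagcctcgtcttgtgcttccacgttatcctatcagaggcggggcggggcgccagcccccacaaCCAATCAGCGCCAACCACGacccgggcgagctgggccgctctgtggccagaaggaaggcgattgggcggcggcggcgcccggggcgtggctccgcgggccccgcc
Hsp90b1: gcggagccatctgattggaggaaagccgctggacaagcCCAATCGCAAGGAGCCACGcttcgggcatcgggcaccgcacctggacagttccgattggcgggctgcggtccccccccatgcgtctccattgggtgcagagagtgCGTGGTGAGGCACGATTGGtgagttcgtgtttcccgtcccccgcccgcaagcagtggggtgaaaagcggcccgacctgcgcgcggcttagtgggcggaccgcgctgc
The element of Hspa5 ended 47 bases before the RefSeq start and that of Herpud1 42 bases before it. The start in GENCODE, from which the gene bounds below are taken, lies 120 bases before the RefSeq start for Hspa5 and 65 bases before it for Hsp90b1, so that by those bounds the element of Hspa5 falls inside the gene. Hsp90b1 had 1 element on each strand, and the element of Creld2 was read on the minus strand. 

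With LPS in WT endothelium 5 of the 33 genes rose and 0 fell, or 15.2%, against 15.6% of all genes (6.85% higher and 8.79% lower). Between the genotypes after LPS 9 of the 33 were higher and 9 lower in SOCS3iKEO, or 54.5%, against 50.7% of all genes (24% higher and 26.7% lower), so members moved both ways at a share near that of all genes. In SOCS3iKEO endothelium after LPS, BiP, the transcription factor genes Xbp1 and Atf6, the eIF2α phosphatase subunit gene Ppp1r15a, Herpud1 and the export gene Sec24d were higher than in WT after LPS with TMM scaling (BiP not without it). GRP94, calreticulin, Hyou1, Sdf2l1, Pdia3, Pdia4 and Creld2 were lower. Of 15 alternative runs, 6 lost the call of GRP94, 5 that of Pdia3 and 3 that of calreticulin. Apart from BiP, the other genes named here kept their calls in all of them.

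**Figure D1:**
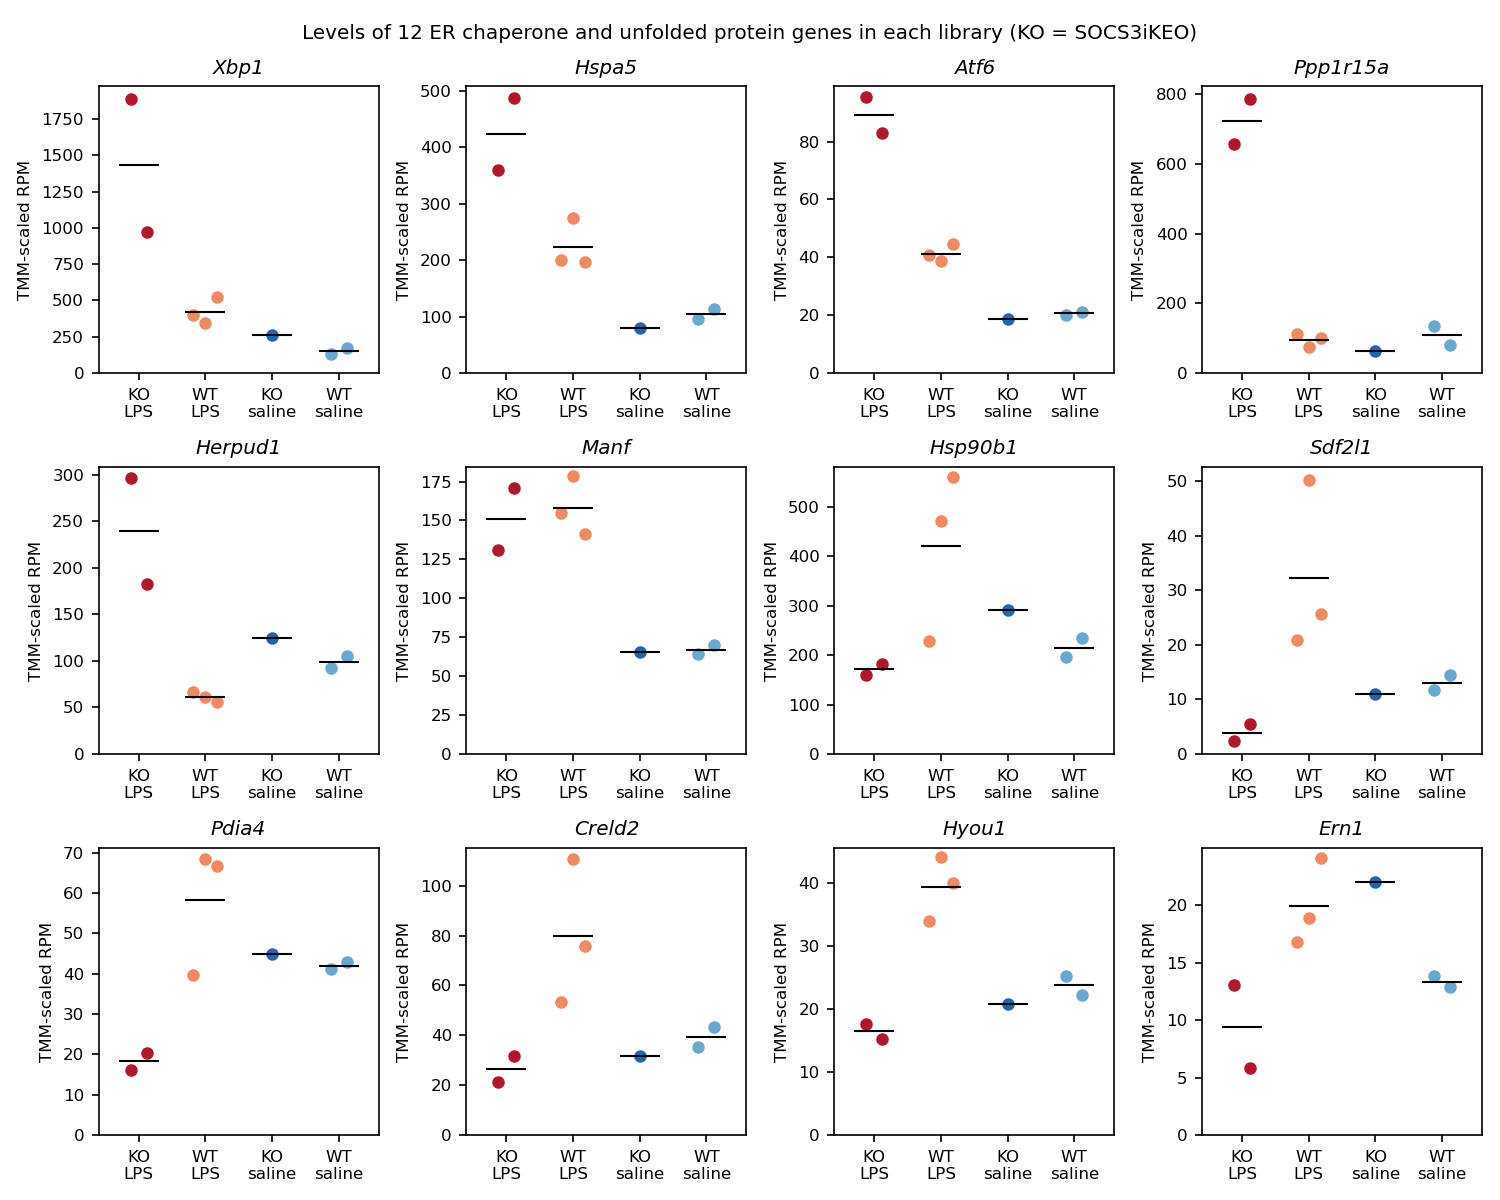
TMM-scaled RPM (y axis, linear from 0) of 12 genes in each of the 8 libraries, by group (x axis; KO stands for SOCS3iKEO); points are libraries and lines are group means. Xbp1, Hspa5, Atf6, Ppp1r15a and Herpud1 were highest in both SOCS3iKEO LPS libraries, whereas Hsp90b1, Sdf2l1, Pdia4, Creld2 and Hyou1 were lowest there.

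Among the stress transducers, Xbp1 (chr11:5520659-5525893 in mm10), the transcription factor spliced by IRE1, had TMM-scaled values of 1890.2 and 973 RPM in SOCS3iKEO LPS, 398, 342 and 524 RPM in WT LPS, 259 RPM in SOCS3iKEO saline, and 134 and 171 RPM in WT saline. No library of one group overlapped another group: the order was SOCS3iKEO LPS, WT LPS, SOCS3iKEO saline, WT saline. With LPS, Xbp1 rose 5.22-fold in SOCS3iKEO (log2 fold change 2.38 ± 0.41 SE, adjusted p = 0.00213) and 2.73-fold in WT (1.45 ± 0.31, adjusted p = 0.0149). After LPS it was 3.26-fold higher in SOCS3iKEO than in WT (1.71 ± 0.31, adjusted p = 0.00193). The difference of the LPS effects, 0.93 ± 0.51 on the log2 scale, did not pass (adjusted p = 0.22).

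Atf6 (chr1:170704674-170867771), the membrane-bound transcription factor, had 95.4 and 82.9 TMM-scaled RPM in SOCS3iKEO LPS, 40.8, 38.6 and 44.5 in WT LPS, 18.5 in SOCS3iKEO saline, and 20.2 and 21.2 in WT saline. Both LPS groups lay above both saline groups, and SOCS3iKEO LPS lay above WT LPS without overlap. LPS raised Atf6 4.60-fold in SOCS3iKEO (log2 2.20 ± 0.26 SE, adjusted p = 0.00041) and 1.95-fold in WT (0.96 ± 0.19, adjusted p = 0.012). The effects differed by 1.24 ± 0.32 (adjusted p = 0.0311), but by 0.69 (adjusted p = 0.14) without TMM scaling. In 6 of 16 alternatives Atf6 lost the call on that difference. Its relative Atf6b, from the list of other stress transducers, went the other way after LPS: it was lower in SOCS3iKEO than in WT by a log2 fold change of -1.96 ± 0.26 (adjusted p = 0.00047).

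Ern1, which encodes IRE1α, had 13.1 and 5.80 TMM-scaled RPM in SOCS3iKEO LPS, 16.8, 18.9 and 24.1 in WT LPS, 22.1 in SOCS3iKEO saline, and 13.8 and 12.9 in WT saline. The SOCS3iKEO LPS libraries were below both other LPS and SOCS3iKEO saline values, although 1 of them was close to WT saline. Ern1 fell with LPS in SOCS3iKEO (log2 -1.24 ± 0.44 SE, adjusted p = 0.0453) and was lower in SOCS3iKEO than in WT after LPS (-1.08 ± 0.33, adjusted p = 0.0212). Without SOCS3iKEO LPS 2, the library with 5.80 RPM, these were -0.70 (adjusted p = 0.12) and -0.53 (adjusted p = 0.14), and without WT LPS 2 or WT LPS 3 the genotype difference had adjusted p = 0.051 and 0.074. Both calls of Ern1 were also lost with a term for Y-linked reads. Eif2ak3, which encodes PERK, had 59.9 and 33.02 RPM in SOCS3iKEO LPS, 40.5, 52.7 and 46.4 in WT LPS, 31.7 in SOCS3iKEO saline, and 34.8 and 31.3 in WT saline. The 2 SOCS3iKEO LPS values bracketed those of WT LPS, and Eif2ak3 passed in no comparison. Its genotype difference after LPS was -0.05 on the log2 scale, with a 95% interval of -0.66 to 0.55.

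Ppp1r15a (chr7:45522916-45526268) encodes GADD34, the inducible subunit that directs a phosphatase to eIF2α and so reverses the action of PERK. It had 656 and 787 TMM-scaled RPM in SOCS3iKEO LPS, 113, 73.6 and 101 in WT LPS, 62.5 in SOCS3iKEO saline, and 135 and 81.7 in WT saline. The SOCS3iKEO LPS values stood far above all others, and WT LPS overlapped WT saline. Ppp1r15a rose 11.3-fold with LPS in SOCS3iKEO (log2 3.50 ± 0.36 SE, adjusted p = 0.000245), and it was 7.55-fold higher in SOCS3iKEO than in WT after LPS (2.92 ± 0.27, adjusted p = 0.000112). In WT the LPS effect was -0.15 ± 0.27 (adjusted p = 0.74), and the effects of the genotypes differed by 3.65 ± 0.45 (adjusted p = 0.00431). Ppp1r15a was the 1 member whose interaction passed under every alternative run.

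Among the chaperones, Hspa5 (chr2:34771970-34777547) encodes BiP, the ER Hsp70 that holds unfolded chains and keeps the sensors inactive. It had 359 and 489 TMM-scaled RPM in SOCS3iKEO LPS, 201, 274 and 197 in WT LPS, 79.7 in SOCS3iKEO saline, and 95.2 and 113 in WT saline. The groups did not overlap after LPS, and each LPS library exceeded each saline library. LPS raised Hspa5 5.20-fold in SOCS3iKEO (log2 2.38 ± 0.31 SE, adjusted p = 0.000594) and 2.12-fold in WT (1.08 ± 0.23, adjusted p = 0.0147). After LPS it was 1.89-fold higher in SOCS3iKEO than in WT (0.92 ± 0.23, adjusted p = 0.00912), but without TMM scaling this was 0.35 with adjusted p = 0.25. The LPS effects differed between genotypes by 1.29 ± 0.38 (adjusted p = 0.0456), and by 0.74 (adjusted p = 0.21) without TMM scaling. The call on that difference was lost in 8 of 16 alternatives, edgeR and no filter on low counts among them.

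Hsp90b1, which encodes GRP94, a chaperone of Toll-like receptors and integrins, had 160.0 and 182 TMM-scaled RPM in SOCS3iKEO LPS, 229, 472 and 561 in WT LPS, 291 in SOCS3iKEO saline, and 196 and 234 in WT saline. Unlike Hspa5, it was lowest in SOCS3iKEO LPS, and WT LPS 1 lay within the WT saline range. With TMM scaling its LPS effect passed in neither genotype (-0.76 ± 0.46 in SOCS3iKEO, adjusted p = 0.20; 0.87 ± 0.34 in WT, adjusted p = 0.12). Without TMM scaling it was lower with LPS in SOCS3iKEO (-1.61, adjusted p = 0.0165), and in WT it was higher without WT LPS 1 (1.27, adjusted p = 0.0071) and with DESeq2 (0.98, adjusted p = 0.0335). After LPS, Hsp90b1 was lower in SOCS3iKEO than in WT by a log2 fold change of -1.20 ± 0.34 (adjusted p = 0.0170). The call was lost with a term for Y-linked reads and with no filter on low counts. That call was lost without SOCS3iKEO LPS 1, SOCS3iKEO LPS 2, WT LPS 2 or WT LPS 3 in turn (adjusted p = 0.091, 0.051, 0.059 and 0.055).

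Calr, the lectin chaperone calreticulin, had 117 and 125 TMM-scaled RPM in SOCS3iKEO LPS, 168, 264 and 216 in WT LPS, 104 in SOCS3iKEO saline, and 117 and 136 in WT saline. It was lower in SOCS3iKEO than in WT after LPS (log2 -0.81 ± 0.22 SE, adjusted p = 0.0138), at a level close to saline; without SOCS3iKEO LPS 1 or WT LPS 2 the adjusted p was 0.061 and 0.054. The call of Calr was also lost with a term for Y-linked reads. Hyou1, a large ER Hsp70 relative that exchanges the nucleotide of BiP, had 17.7 and 15.3 RPM in SOCS3iKEO LPS, 33.9, 44.1 and 40.04 in WT LPS, 20.8 in SOCS3iKEO saline, and 25.3 and 22.3 in WT saline. WT LPS lay above and SOCS3iKEO LPS below all saline values, and the genotypes differed after LPS by -1.20 ± 0.22 (adjusted p = 0.00197). Canx, the membrane-bound lectin chaperone calnexin, differed by -0.35 between genotypes after LPS, with a 95% interval of -0.78 to 0.08, and by -0.91 without TMM scaling (adjusted p = 0.0029).

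Sdf2l1 (chr16:17130138-17132383) encodes a small ER protein that works with ER J proteins to keep clients from aggregating. It had 2.30 and 5.50 TMM-scaled RPM in SOCS3iKEO LPS, 20.97, 50.2 and 25.6 in WT LPS, 11.1 in SOCS3iKEO saline, and 11.8 and 14.4 in WT saline. The lowest of these values rested on 13 reads. WT LPS lay above saline and SOCS3iKEO LPS below it in every library. After LPS, Sdf2l1 was lower in SOCS3iKEO than in WT by -2.75 ± 0.41 on the log2 scale (adjusted p = 0.000789), the largest decrease among the members in that comparison. Its LPS effects, -1.38 ± 0.55 in SOCS3iKEO (adjusted p = 0.067) and 1.15 ± 0.41 in WT (adjusted p = 0.089), passed in neither genotype alone with TMM scaling, while their difference did (-2.53 ± 0.68, adjusted p = 0.0352). On the deposited scale the effect in SOCS3iKEO was -2.07 and passed (adjusted p = 0.0116). The call on the difference of the LPS effects was lost in 7 of 16 alternatives, a pseudocount of 10 among them.

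Of the 3 J proteins, co-chaperones that hand clients to BiP, Dnajb11 did not pass between genotypes after LPS with TMM scaling (0.01, 95% interval -0.41 to 0.43), and was lower without it (-0.55, adjusted p = 0.043). It had 56.4 and 56.8 TMM-scaled RPM in SOCS3iKEO LPS, 52.5, 61.6 and 54.8 in WT LPS, 30.8 in SOCS3iKEO saline, and 31.2 and 34.7 in WT saline. Dnajb11 rose with LPS in SOCS3iKEO (0.86 ± 0.25, adjusted p = 0.0221) and in WT (0.75 ± 0.19, adjusted p = 0.0272), although without TMM scaling these were 0.03 and 0.47 and neither passed. Dnajc3, which encodes a J protein first described as an inhibitor of PKR and PERK, had 60.2 and 51.3 RPM in SOCS3iKEO LPS, 30.2, 38.4 and 35.5 in WT LPS, 22.3 in SOCS3iKEO saline, and 27.3 in both WT saline libraries. Dnajb9, a J protein that binds IRE1, had 65.0 and 69.2 RPM in SOCS3iKEO LPS, 38.2, 33.9 and 35.2 in WT LPS, 38.0 in SOCS3iKEO saline, and 28.5 and 26.7 in WT saline. Both were higher in SOCS3iKEO LPS than in every other library, with log2 fold changes against WT LPS of 0.67 ± 0.20 for Dnajc3 (adjusted p = 0.0222) and 0.89 ± 0.19 for Dnajb9 (adjusted p = 0.00408). Without TMM scaling the 2 genes differed between genotypes by 0.12 and 0.33 and did not pass, and the LPS effect of Dnajb9 in SOCS3iKEO, 0.80 with TMM (adjusted p = 0.0286), turned to -0.03. Dnajc3 also missed the threshold between genotypes without SOCS3iKEO LPS 1 (adjusted p = 0.094) or WT LPS 3 (0.053).

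Disulfide isomerases, which form and rearrange disulfide bonds, were not higher in SOCS3iKEO in any called comparison. Pdia4 (chr6:47796141-47813430) had 16.1 and 20.4 TMM-scaled RPM in SOCS3iKEO LPS, 39.7, 68.5 and 66.6 in WT LPS, 44.9 in SOCS3iKEO saline, and 41.1 and 42.9 in WT saline. The SOCS3iKEO LPS libraries were below all others. Pdia4 fell with LPS in SOCS3iKEO (log2 -1.26 ± 0.36 SE, adjusted p = 0.0197; -1.12 and 0.058 without SOCS3iKEO LPS 1), was lower in SOCS3iKEO than in WT after LPS (-1.59 ± 0.27, adjusted p = 0.00146), and its LPS effects differed by -1.69 ± 0.45 (adjusted p = 0.0338). The call on the difference of the Pdia4 effects was lost in 6 of 16 alternatives. Pdia3, the isomerase that partners calnexin and calreticulin, had 47.5 and 109 RPM in SOCS3iKEO LPS, 119, 193 and 179 in WT LPS, 100.2 in SOCS3iKEO saline, and 90.1 and 110.4 in WT saline. Its 2 SOCS3iKEO LPS values differed by more than 2-fold, and its call between genotypes after LPS was lost with a term for Y-linked reads. The genotype difference after LPS, -1.15 ± 0.35 (adjusted p = 0.0213), became -0.56 (adjusted p = 0.175) without SOCS3iKEO LPS 1 and had adjusted p = 0.071 and 0.065 without WT LPS 2 and WT LPS 3.

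The other 4 disulfide genes passed in no comparison with TMM scaling. P4hb, the founding protein disulfide isomerase, ranged from 52.8 to 92.4 TMM-scaled RPM over the 8 libraries, and its genotype difference after LPS was -0.31 (95% interval -0.77 to 0.14), or -0.87 without TMM scaling (adjusted p = 0.0061). Pdia6 ranged from 24.1 to 70.6 RPM. Ero1l, the oxidase that recharges protein disulfide isomerase, ranged from 5.12 to 9.35 RPM, with both SOCS3iKEO LPS libraries below all 3 WT LPS libraries. Erp44, which retains clients by thiol bonds, stayed between 1.80 and 2.36 RPM, from 12 to 43 reads. Without TMM scaling Pdia6 (-1.04) and Ero1l (-0.998) were also lower in SOCS3iKEO than in WT after LPS.

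The 2 secreted ER stress proteins parted after LPS. Manf, a neurotrophic factor released under ER stress, had 131 and 171 TMM-scaled RPM in SOCS3iKEO LPS, 155, 179 and 141 in WT LPS, 65.7 in SOCS3iKEO saline, and 64.3 and 69.8 in WT saline. Manf rose with LPS in SOCS3iKEO (log2 1.17 ± 0.27 SE, adjusted p = 0.00755) and in WT (1.22 ± 0.20, adjusted p = 0.00524), and the genotypes overlapped after LPS, with a difference of -0.07 (95% interval -0.53 to 0.38). On the deposited scale the LPS effect of Manf in SOCS3iKEO was 0.33 and did not pass (adjusted p = 0.37), the effect in WT was 0.93 (adjusted p = 0.0162), and Manf was lower in SOCS3iKEO than in WT after LPS (-0.64, adjusted p = 0.032). Creld2, an ER protein with epidermal growth factor repeats, had 21.2 and 31.6 RPM in SOCS3iKEO LPS, 53.4, 111 and 75.8 in WT LPS, 31.8 in SOCS3iKEO saline, and 35.2 and 43.3 in WT saline. WT LPS was above all saline values and SOCS3iKEO LPS below them, and Creld2 was lower in SOCS3iKEO than in WT after LPS (-1.53 ± 0.31, adjusted p = 0.00368).

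In ER-associated degradation, which returns misfolded proteins to the cytosol for the proteasome, Herpud1 and Derl2 moved in opposite directions. Herpud1 (chr8:94386438-94395377), a membrane protein that assembles the degradation complex, had 296 and 182 TMM-scaled RPM in SOCS3iKEO LPS, 66.0, 60.9 and 55.9 in WT LPS, 124 in SOCS3iKEO saline, and 92.6 and 106 in WT saline. Its WT LPS values were the lowest of all, below WT saline, where the LPS effect of -0.69 ± 0.23 did not pass with TMM scaling (adjusted p = 0.074) and passed without it (-0.99, adjusted p = 0.0145). Herpud1 was 3.77-fold higher in SOCS3iKEO than in WT after LPS (log2 1.92 ± 0.23 SE, adjusted p = 0.00031). The LPS effects differed by 1.59 ± 0.39 (adjusted p = 0.0255), or by 1.04 without TMM scaling (adjusted p = 0.070). In 6 of 16 alternatives Herpud1 lost the call on that difference. With LPS it rose in SOCS3iKEO by 0.90 ± 0.31 (adjusted p = 0.0424), but without TMM scaling this was 0.05, and without SOCS3iKEO LPS 1 it was 0.54 (adjusted p = 0.13). The LPS call of Herpud1 in SOCS3iKEO was also lost with a term for Y-linked reads. Derl2, a Derlin of the retrotranslocation channel, had 4.59 and 3.90 RPM in SOCS3iKEO LPS, 9.69, 14.99 and 13.2 in WT LPS, 6.90 in SOCS3iKEO saline, and 8.55 and 11.03 in WT saline. It was lower in SOCS3iKEO than in WT after LPS (-1.36 ± 0.27, adjusted p = 0.00328).

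Syvn1, the ubiquitin ligase HRD1, ranged from 15.7 to 38.5 TMM-scaled RPM over the 8 libraries, with SOCS3iKEO LPS highest. It rose with LPS in SOCS3iKEO by 0.87 ± 0.30 (adjusted p = 0.0434), but the effect was 0.05 without TMM scaling and had adjusted p = 0.096 without SOCS3iKEO LPS 2. The call of Syvn1 was also lost with a term for Y-linked reads. Sel1l, the partner of HRD1, ranged from 27.2 to 61.6 RPM, Edem1, a lectin-like protein that selects glycoproteins, from 10.3 to 23.0 RPM, Derl1 from 22.3 to 48.5 RPM and Os9, a second lectin, from 13.1 to 24.1 RPM. These 4 passed in no comparison with TMM scaling. Without it Os9 (-1.02) and Sel1l (-1.025) were lower in SOCS3iKEO than in WT after LPS. Derl3 had 0 reads in both SOCS3iKEO LPS libraries, 2, 9 and 1 in WT LPS, 1 in SOCS3iKEO saline, and 2 and 4 in WT saline, so that no difference was detectable at this depth.

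For translocation and export, Sec24d encodes a cargo receptor of the COPII coat that carries proteins out of the ER. It had 116 and 84.8 TMM-scaled RPM in SOCS3iKEO LPS, 33.9, 33.9 and 56.2 in WT LPS, 37.8 in SOCS3iKEO saline, and 32.1 and 32.3 in WT saline. Both SOCS3iKEO LPS libraries were above all others. Sec24d rose with LPS in SOCS3iKEO by 1.37 ± 0.36 (adjusted p = 0.0134; 0.53 without TMM scaling, not called) and was 2.44-fold higher in SOCS3iKEO than in WT after LPS (log2 1.28 ± 0.27 SE, adjusted p = 0.00387). Sec61a1, the channel subunit of the translocon, had 165 and 115 RPM in SOCS3iKEO LPS, 114, 79.8 and 82.4 in WT LPS, 67.4 in SOCS3iKEO saline, and 59.5 and 50.5 in WT saline. Ssr1, a subunit of the translocon-associated protein complex, had 61.7 and 68.1 RPM in SOCS3iKEO LPS, 42.8, 43.4 and 41.7 in WT LPS, 30.9 in SOCS3iKEO saline, and 32.8 and 41.1 in WT saline. For both genes SOCS3iKEO LPS was highest, for Sec61a1 by a small margin over WT LPS 1; their LPS effects in SOCS3iKEO were 1.02 ± 0.32 for Sec61a1 (adjusted p = 0.0297) and 1.05 ± 0.26 for Ssr1 (adjusted p = 0.0109). Without TMM scaling these were 0.17 and 0.21 and did not pass, and for Sec61a1 the adjusted p was 0.10 without SOCS3iKEO LPS 1. Ssr1 was also higher in SOCS3iKEO than in WT after LPS (0.59 ± 0.19, adjusted p = 0.0297), at 0.04 without TMM scaling and with adjusted p = 0.073, 0.075 and 0.079 without SOCS3iKEO LPS 2, WT LPS 2 and WT LPS 3. The genotype call of Ssr1 was also lost with a term for Y-linked reads. Ssr2, another subunit of the translocon-associated protein complex, ranged from 91.5 to 139.8 RPM and passed in no comparison with TMM scaling. Without TMM scaling Ssr2 was lower in SOCS3iKEO than in WT after LPS (-0.71, adjusted p = 0.026).

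Taking each comparison over the list, LPS in WT called 5 members higher and 0 lower of 33 (15.2%), namely Xbp1, Manf, Hspa5, Atf6 and Dnajb11. Over all 12820 genes 15.6% were called, 6.85% higher and 8.79% lower. The share called in both directions together was thus near that of all genes, while all 5 member calls were higher. The median log2 fold change of the 33 was 0.53, against -0.02 over all genes, and 29 of the 33 were above 0. Without TMM scaling 4 members were called higher and 1 lower, with a median of 0.24 against -0.264 over all genes. On that scale 586 of all 12820 genes were called higher and 2366 lower. Without WT saline 1 or WT saline 2, few or no members were called, with a median log2 fold change of 0.412 and 0.599. Each of these fits left 1 library in that group, and calls over all genes fell too. Without WT LPS 1, 2 and 3 the members called higher were 9, 4 and 3, against 770, 675 and 503 of all genes. With the SOCS3iKEO LPS libraries left out of the fit, 8 members were called higher and 1 lower, against 1133 and 1427 of all genes.

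In SOCS3iKEO, LPS called 13 members higher and 2 lower of 33 (45.5%), against 44% of all genes, of which 20.2% were higher and 23.9% lower. By role the calls were 3 higher and 1 lower of 5 stress transducers, 4 higher of 9 chaperones, 1 lower of 6 disulfide genes, 1 higher of 2 secreted proteins, 2 higher of 7 degradation genes and 3 higher of 4 translocon and export genes. The median was 0.35, against -0.08 over all genes. The scaling decided this split: without TMM scaling 4 were called higher (Ppp1r15a, Xbp1, Hspa5 and Atf6) and 9 lower. Their median was then -0.47, against -0.734 over all genes, of which 1219 of 12820 were called higher and 5687 lower. The group of SOCS3iKEO mice given saline held 1 library, whose spread the fit took from the other groups.

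**Figure D2:**
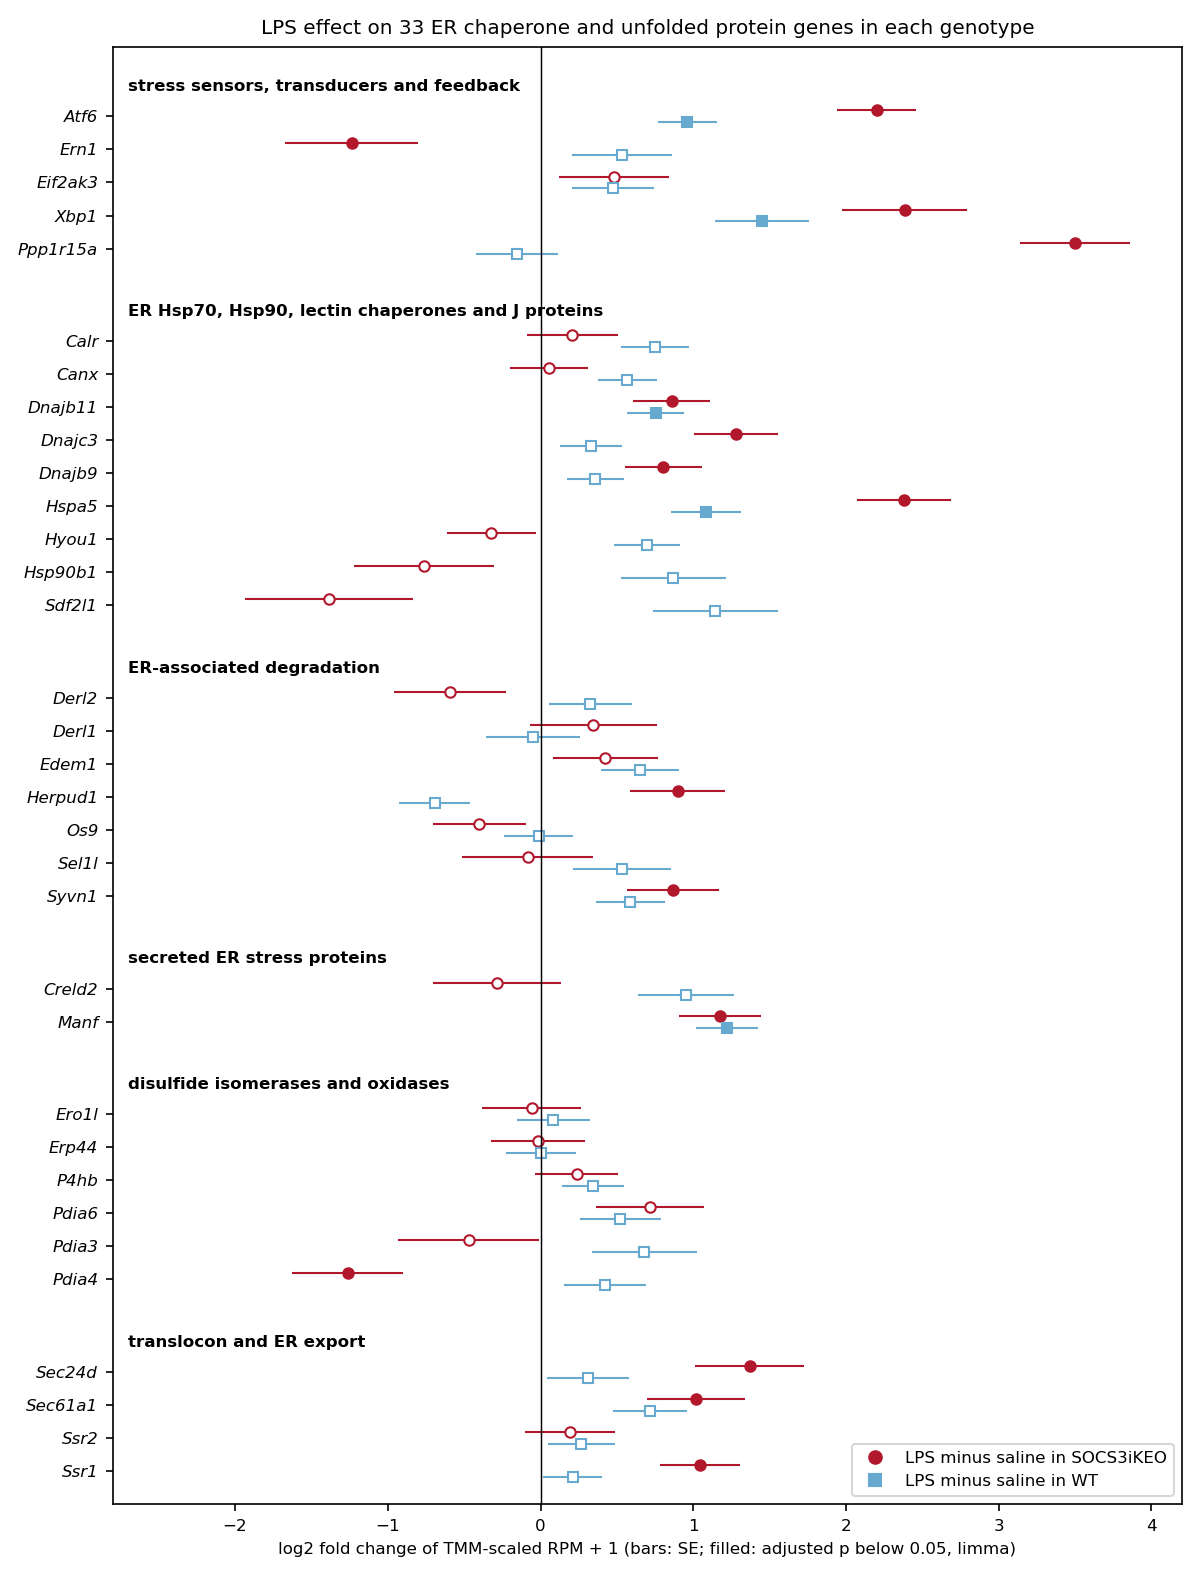
Log2 fold change of LPS against saline on log2(TMM-scaled RPM + 1) (x axis) for the 33 genes tested (y axis, by role), in SOCS3iKEO (circles) and in WT (squares); bars are SE and filled symbols have an adjusted p below 0.05. The SOCS3iKEO symbols lie far to the right of WT for Ppp1r15a, Hspa5 and Atf6, and on the other side of 0 from WT for Ern1, Pdia4, Sdf2l1 and Hsp90b1.

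SOCS3iKEO against WT after LPS called 9 members higher and 9 lower of 33 (54.5%), against 50.7% of all genes, of which 24% were higher and 26.7% lower, so both shares were near those of all genes. The median was -0.15, against -0.04 over all genes. Higher were Ppp1r15a, Herpud1, Xbp1, Sec24d, Atf6, Hspa5, Dnajb9, Dnajc3 and Ssr1, and lower were Sdf2l1, Pdia4, Creld2, Derl2, Hyou1, Hsp90b1, Pdia3, Ern1 and Calr. By role, 3 of 5 stress transducers were higher and 1 lower, 3 of 9 chaperones were higher and 4 lower, and 2 of 6 disulfide genes were lower. Without TMM scaling 5 were called higher and 18 lower, where 1721 of all 12820 genes were higher and 5346 lower. The 5 were Ppp1r15a, Herpud1, Xbp1, Sec24d and Atf6. Under every alternative run for this comparison 10 of the 18 calls held, for Ppp1r15a, Herpud1, Xbp1, Sec24d, Atf6, Sdf2l1, Pdia4, Creld2, Derl2 and Hyou1. Without WT LPS 2 the number called lower was 5, and with a term for Y-linked reads it was also 5. Over all genes the numbers called lower in these fits were 2613 and 2439. With the Y-linked term the calls of Hsp90b1, Pdia3, Ern1, Calr and Ssr1 were lost. Proximal tubule markers moved with this comparison, as given above.

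**Figure D3:**
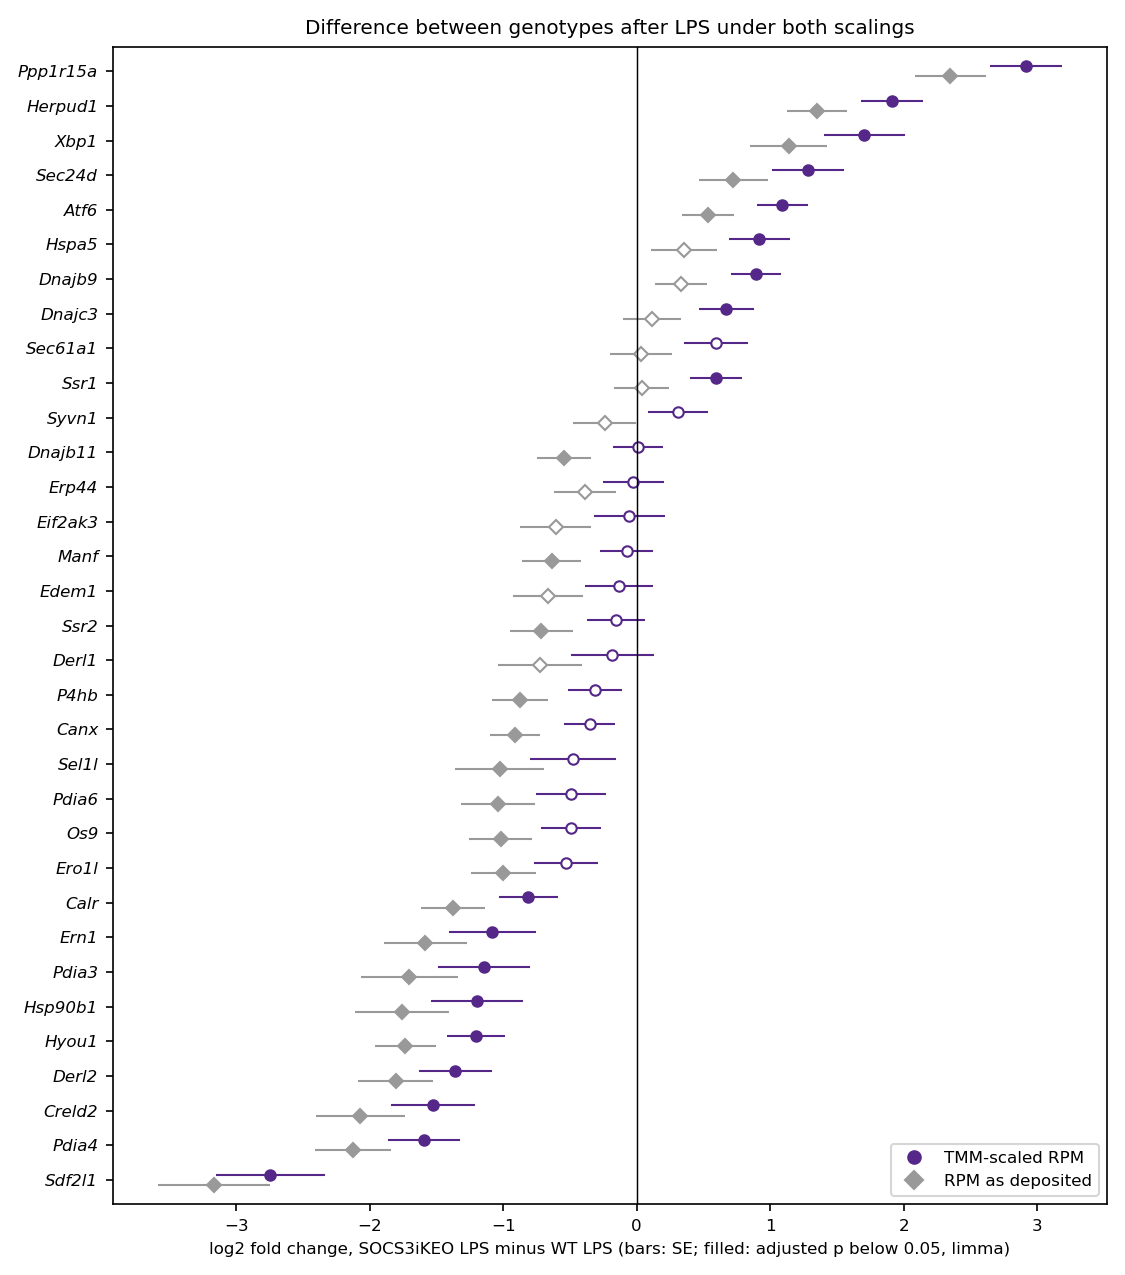
Log2 fold change of SOCS3iKEO against WT after LPS (x axis) for the 33 genes tested (y axis, in order), from TMM-scaled RPM (circles) and from RPM as deposited (diamonds); bars are SE and filled symbols have an adjusted p below 0.05. The deposited scale shifts all genes to lower values, and Ppp1r15a and Sdf2l1 keep the ends of the order.

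After saline no member was called between the genotypes, and over all genes limma called 0% of 12820. At an unadjusted p below 0.05 there were 423 genes and 0 members. EdgeR on the recovered reads called 0 genes, and DESeq2 called 5, with 0 members. With 1 SOCS3iKEO library the intervals were wide: the difference was 0.77 for Xbp1 (95% interval -0.15 to 1.70), -0.74 for Ppp1r15a (-1.55 to 0.07) and -0.69 for Pdia6 (-1.48 to 0.11).

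The interaction, the LPS effect in SOCS3iKEO minus that in WT, called 4 members higher (Ppp1r15a, Herpud1, Hspa5 and Atf6) and 2 lower (Sdf2l1 and Pdia4), which is 18.2% of the 33, against 18.5% of all genes, of which 8.96% were higher and 9.5% lower. Without TMM scaling it called 1 member higher and 7 lower, where 621 of all 12820 genes were higher and 2561 lower. Without WT LPS 2, WT LPS 3, WT saline 1 or WT saline 2 in turn, Ppp1r15a alone was called. The calls over all genes fell in each of these fits too. This comparison and those above share libraries.

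Ratios of 2 members within a library do not depend on any scaling between libraries, and they do not change between the scalings. The pairs were chosen after the values were seen, so they are given without a test. Hspa5 to Hsp90b1 was 2.24 and 2.68 in SOCS3iKEO LPS, 0.878, 0.581 and 0.351 in WT LPS, 0.274 in SOCS3iKEO saline, and 0.485 and 0.484 in WT saline. Xbp1 to Ern1 was 145 and 168 in SOCS3iKEO LPS, 23.6, 18.1 and 21.8 in WT LPS, 11.7 in SOCS3iKEO saline, and 9.68 and 13.3 in WT saline. Both ratios were higher in SOCS3iKEO LPS than in any other library. Ppp1r15a to Eif2ak3 was 10.96 and 23.8 in SOCS3iKEO LPS, 2.79, 1.40 and 2.17 in WT LPS, 1.98 in SOCS3iKEO saline, and 3.87 and 2.61 in WT saline. Herpud1 to Sdf2l1 was 129 and 33.1 in SOCS3iKEO LPS, 3.15, 1.21 and 2.18 in WT LPS, 11.2 in SOCS3iKEO saline, and 7.87 and 7.33 in WT saline. For the last pair WT LPS lay below saline and SOCS3iKEO LPS above it. The summed RPM of all 34 members as deposited was 3232 and 2944 in SOCS3iKEO LPS and 2506, 3295 and 3221 in WT LPS. It was 2344 in SOCS3iKEO saline, and 2168 and 2333 in WT saline. On that scale the LPS groups overlapped. With TMM scaling the sum was 4814 and 4152 in SOCS3iKEO LPS and 2521, 3089 and 3196 in WT LPS, without overlap. Xbp1 made up 39.3% and 23.4% of that sum in SOCS3iKEO LPS and 15.8%, 11.1% and 16.4% in WT LPS.

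**Figure D4:**
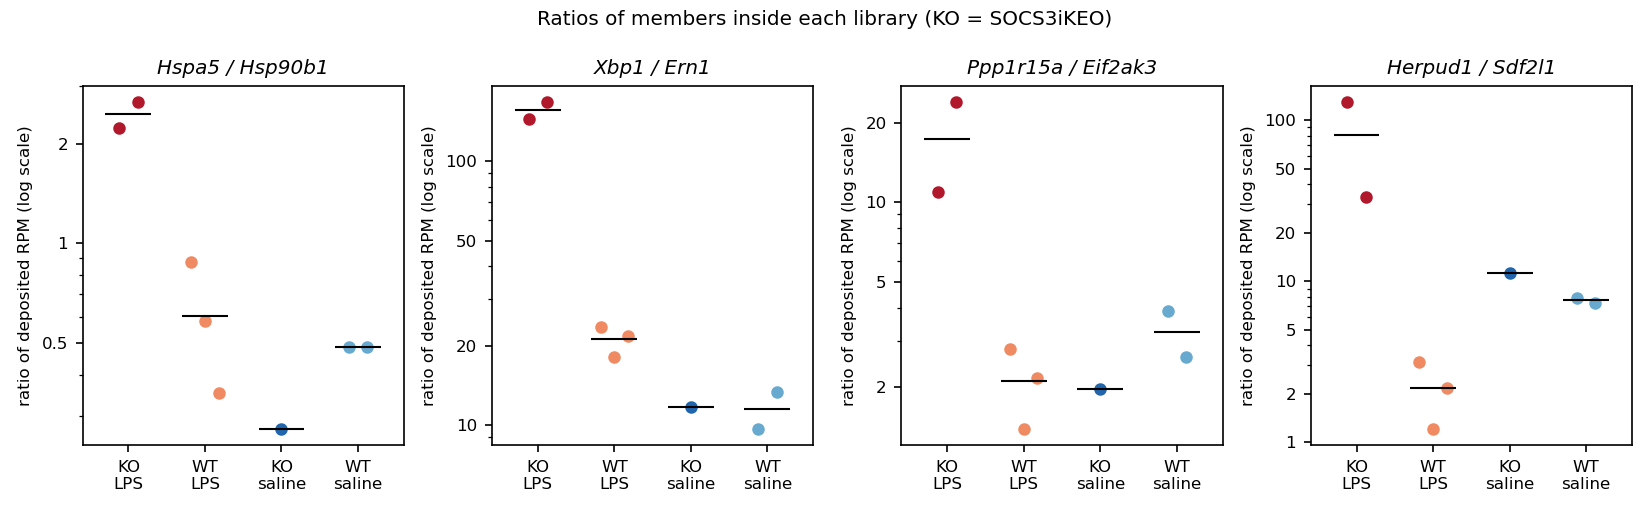
Ratio of the deposited RPM of 2 members (y axis, log scale) in each library, by group (x axis; KO stands for SOCS3iKEO); points are libraries and lines are group means. In all 4 panels the SOCS3iKEO LPS libraries are the highest, at 2.24 and 2.68 for Hspa5 to Hsp90b1 and at 145 and 168 for Xbp1 to Ern1.

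Set beside the promoters, 9 tested members had a full element and 18 matched members had none. After LPS, SOCS3iKEO exceeded WT for 3 of the 9 (Hspa5, Herpud1 and Dnajc3) and was below it for 3 (Hsp90b1, Creld2 and Calr), and for the 18 without an element the numbers were 5 and 5, where 24% of all genes were higher and 26.7% lower. Without TMM scaling the numbers were 1 higher and 5 lower of the 9, and 3 and 10 of the 18. On that scale 1721 of all 12820 genes were higher and 5346 lower. Hsp90b1, with its element on both strands, was thus lower where Hspa5 was higher. With LPS in SOCS3iKEO 4 of the 9 were higher and 0 lower, against 6 and 2 of the 18, where 20.2% of all genes were higher and 23.9% lower. Without TMM scaling these were 1 higher and 2 lower of the 9, and 2 and 6 of the 18. On that scale 1219 of all 12820 genes were higher and 5687 lower. A match in this window is a description of the sequence and does not show binding.

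Of 121 further genes of the ER pathway, 112 had a row and 109 were tested. Their calls were 13 higher and 2 lower for LPS in WT, 29 higher and 12 lower for LPS in SOCS3iKEO, 22 higher and 23 lower for SOCS3iKEO against WT after LPS, and 8 higher and 6 lower for the interaction. In each of these comparisons the share called, 13.8%, 37.6%, 41.3% and 12.8%, was below the share of all genes given above. The list counts below without TMM scaling stand beside calls over all 12820 genes that shift on that scale too. Those were 1721 higher and 5346 lower between genotypes after LPS. For LPS they were 1219 and 5687 in SOCS3iKEO, and 586 and 2366 in WT.

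Among the lists is the ATF4 and CHOP branch, the genes downstream of PERK and of other kinases of eIF2α. After LPS, 7 of its 10 genes were higher and 1 lower in SOCS3iKEO than in WT, with a median log2 fold change of 1.46, where 24% of all genes were higher, 26.7% were lower and the median was -0.04. Atf3 (2.38 ± 0.54 SE), Cebpb (2.30 ± 0.28) and Atf4 (1.81 ± 0.27), all transcription factors, led the higher genes, and Ddit3, which encodes CHOP, was lower (-1.19 ± 0.28, adjusted p = 0.0068). With LPS in SOCS3iKEO 6 were higher, led by Cebpb (6.20), Ddit4 (3.20), an inhibitor of mTORC1, and Atf4 (3.02), and Ddit3 was lower (-1.27). With LPS in WT 3 were higher, namely Cebpb (3.18), Ddit4 (1.60) and Atf4 (1.26). Without TMM scaling the counts were 5 higher and 1 lower between genotypes after LPS, 5 and 1 for LPS in SOCS3iKEO, and 3 and 1 for LPS in WT. Cebpb is also a target of other inflammatory signals.

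Oligosaccharyltransferase and glycan trimming genes, which add and edit N-linked sugars, were lower in SOCS3iKEO than in WT after LPS in 6 of 15 and higher in 2. That was 53.3%, against 50.7% of all genes (24% higher and 26.7% lower), and without TMM scaling 13 were lower and 0 higher. Mogs (-1.77), the first glucosidase of trimming, Ostc (-1.41) and Krtcap2 (-1.09), subunits of the transferase, were lowest. Dad1 (0.59) and Stt3a (0.69) were higher. In WT the catalytic subunit Stt3b rose with LPS by 1.46 ± 0.27 (adjusted p = 0.009).

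Among other stress transducers after LPS, 4 of 14 were higher and 3 lower in SOCS3iKEO than in WT, or 50%, which is near the 50.7% of all genes. Creb3l1, a membrane-bound factor of the ATF6 kind, was higher by 2.26 ± 0.35 (adjusted p = 0.00099), and Eif2s1, which encodes eIF2α itself, by 1.22 ± 0.35. Atf6b, the protease gene Mbtps1 (-1.22), whose product cuts ATF6, and Creb3 (-0.89) were lower. Without TMM scaling 2 of the 14 were higher and 8 lower.

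In the list of COPII export and KDEL retrieval, Bet1 (-2.89) and Sec24c (-1.90) were lower and Sec23b (1.54) higher in SOCS3iKEO than in WT after LPS, so that Sec24c moved opposite to its paralog Sec24d. Of 18 genes, 4 were lower and 1 higher (27.8%, against 50.7% of all genes), and without TMM scaling 11 were lower and 1 higher. Among other folding genes 2 of 19 were higher and 4 lower between genotypes after LPS (31.6%, against 50.7%), and without TMM scaling 1 and 12. Pdia5, a disulfide isomerase linked to ATF6, fell with LPS in SOCS3iKEO (-4.02 ± 0.62, adjusted p = 0.0013) and in WT (-2.48 ± 0.46, adjusted p = 0.0093). Qsox1, a secreted disulfide oxidase, rose in SOCS3iKEO (2.63 ± 0.32) and in WT (2.40 ± 0.24). In the list of other degradation genes 8 of 19 rose and 2 fell with LPS in SOCS3iKEO, and without TMM scaling 1 and 5. With TMM scaling 52.6% were called, against 44% of all genes (20.2% higher and 23.9% lower). Vimp, a partner of the ATPase p97, rose in SOCS3iKEO by 2.03 ± 0.29 and in WT by 1.17 ± 0.22, and the ligase gene Rnf5 fell in SOCS3iKEO by 1.80 on the log2 scale. In the list of translocon, signal peptidase and signal recognition genes 3 of 14 were higher (Ssr3, Sec63 and Srpr) and 2 lower (Spcs2 and Ssr4) between genotypes after LPS. That was 35.7%, against 50.7% of all genes, and without TMM scaling the numbers were 0 and 6.

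**Figure D5:**
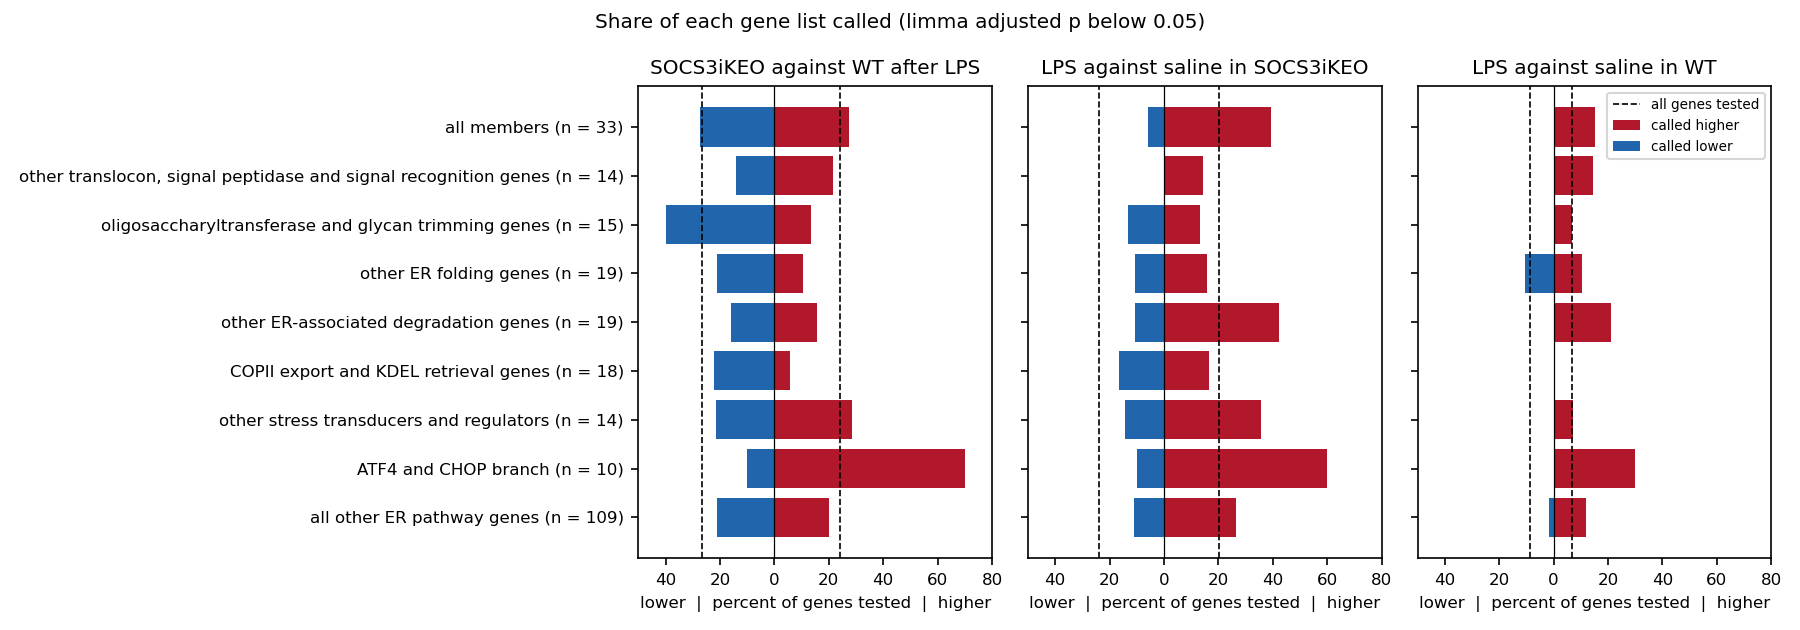
Percent of tested genes called higher (bars to the right) and lower (bars to the left) at an adjusted p below 0.05 for the members and for each list of other ER pathway genes, in 3 comparisons; n is the number tested and dashed lines mark all genes. The ATF4 and CHOP branch reaches beyond the dashed line for higher calls in all 3 panels, and the oligosaccharyltransferase list reaches beyond the line for lower calls between genotypes after LPS.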

How the data were processed

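The authors deposited 1 table of reads per 1000000 panel reads (RPM) for each amplicon of an Ion AmpliSeq mouse transcriptome panel, 1 column per mouse. Per the submitters' processing notes the build was mm10 and Transcriptome Analysis Console was used. Not given in the sources used here: aligner, counter and strand of counting. All values (100%) came out as whole reads within 0.1 read, so reads were recovered (1 read was 0.0672 to 0.141 RPM), and 27 gene names turned into dates were restored. PCR copies carry no molecular identifiers, so read numbers cover counting error only. Libraries of 1 group differed far beyond counting noise (chi-square per degree of freedom of 22.18 to 75.36).

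R 4.3.3 was used. The main test was limma 3.58.1 with a trended prior on log2(TMM-scaled RPM + 1), which understates the change of low genes, over the 12820 genes kept by filterByExpr (minimum count 10, minimum total 15). The fit took the 8 libraries together with 4 group means, p values were Benjamini-Hochberg adjusted over all 12820 genes, and a gene was called at an adjusted p below 0.05. On the recovered reads the quasi-likelihood test of edgeR 4.0.16 called, higher and lower, 923 and 1142 genes (WT, LPS effect), 2297 and 2897 (SOCS3iKEO, LPS effect), 2967 and 3286 (genotypes, LPS), 0 and 0 (genotypes, saline) and 875 and 1240 (interaction). DESeq2 1.42.0 was another alternative. The others were RLE size factors, RPM as deposited, pseudocounts of 0.1 and 10, no filter, a term for Y-linked reads, fits on fewer groups and leaving out in turn each library of the groups compared, other than the only SOCS3iKEO saline library. A correction for GC content and length, available for 98.5% of the genes, was added after seeing the data. Scripts were tested on simulated data.

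The members and lists were chosen with earlier results of these data known. Values are given in every library for Hspa5, Hsp90b1, Xbp1, Ern1, Atf6, Eif2ak3 and Ppp1r15a, and for up to 10 called members per comparison and direction with the largest change. Other lists name up to 3 called genes per comparison and direction. Gene bounds are from GENCODE M21 on mm10. A protein-coding gene on the opposite strand overlaps Ppp1r15a (Tulp2), Pdia3 (Catsper2), Pdia6 (Atp6v1c2), Manf (Dcaf1), Syvn1 (Mrpl49) and Derl2 (Mis12), and amplicon positions are not given, so their reads may be shared.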

Additional observations from a re-analysis of the deposited data

Results flagged for a closer look

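For 6 members the LPS effect in SOCS3iKEO differed from that in WT by the interaction term of limma. On the log2 scale the difference was 3.65 for Ppp1r15a, 1.59 for Herpud1, 1.29 for Hspa5 and 1.24 for Atf6. It was -2.53 for Sdf2l1 and -1.69 for Pdia4. Without TMM scaling the differences of Herpud1, Hspa5 and Atf6 did not pass. Of 16 alternatives, 8 lost the call of Hspa5, 7 that of Sdf2l1, and 6 each that of Herpud1, Atf6 and Pdia4. The run of animal numbers cannot be told apart from these differences, and the part of the tubule markers, which were higher in SOCS3iKEO than in WT after LPS, was not tested.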

How the results depend on the processing

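No paired analysis was possible, because each library came from 1 mouse and the labels give no pairing of animals. The numbers in the library names pair nothing. The following numbers of members called come from the alternatives. For each comparison listed here, RPM as deposited also moved the calls over all genes toward lower, as given above. Over all genes LPS in WT called, higher and lower, 878 and 1127 in the main fit and 1308 and 1263 with DESeq2. It called 420 and 658 of 19657 with no filter, and 1127 and 1449 of 11863 on the 5 WT libraries. The interaction called 1149 and 1218 in the main fit, 1422 and 1472 with DESeq2, and 429 and 414 with no filter. It called 1146 and 1022 with pseudocount 10, and 1619 and 1734 without WT LPS 1. The numbers that follow are of members again. For LPS in WT (5 higher, 0 lower), RPM as deposited gave 1 lower, no filter gave 3 higher, DESeq2 gave 11 higher, and both the fit on the 5 WT libraries and the fit without SOCS3iKEO LPS gave 8 higher and 1 lower. Leaving out 1 library gave 0 to 9 higher. For LPS in SOCS3iKEO (13 higher, 2 lower), RPM as deposited gave 4 higher and 9 lower, and RLE size factors, no filter, DESeq2, the Y-linked term and the GC content and length correction each gave 1 lower. Leaving out 1 library gave 1 to 3 lower. For SOCS3iKEO against WT after LPS (9 higher, 9 lower), RPM as deposited gave 5 higher and 18 lower, the Y-linked term gave 5 lower, and leaving out 1 library gave 5 to 10 lower. For the interaction (4 higher, 2 lower), RPM as deposited gave 1 higher and 7 lower, pseudocount 10 gave 1 lower, no filter gave 2 higher and 0 lower, DESeq2 gave 4 lower, and leaving out 1 library gave 1 to 5 higher and 0 to 6 lower. Dnajb9, called higher for LPS in SOCS3iKEO, was at -0.032 with RPM as deposited. The scaling sets these differences by construction; the other causes were not tested. Under every alternative run for its comparison, none of which left out the only SOCS3iKEO saline library, 0 of 5 calls held for LPS in WT, 4 of 15 for LPS in SOCS3iKEO, 10 of 18 between genotypes after LPS and 1 of 6 for the interaction. Derl3 is limited by depth, with at most 9 reads.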
